A study of Bubalus bubalis with 6 samples.

Results

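The genes examined were those of prostaglandin synthesis, prostaglandin receptors and prostaglandin inactivation in buffalo muscle stem cells (MuSCs). They were 10 of the 24616 genes listed, namely the cyclooxygenases PTGS1 and PTGS2, the terminal synthases PTGES, PTGIS and PTGDS, the receptors PTGER2, PTGER3, PTGER4 and PTGFR, and the inactivating enzyme HPGD. They were found in the gene table by symbol, and the set had been chosen from this family with results of the same DM and GM samples known. The values in those samples are therefore given as a description, without p-values, and whether a gene met the limits for a call is stated as part of that description.

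Prostaglandins are short-lived lipid signals made from arachidonic acid, which phospholipase A2 releases from membranes and cyclooxygenases turn into the unstable intermediate PGH2. Terminal synthases then make PGE2 (PTGES), prostacyclin (PTGIS) or PGD2 (PTGDS), and each product acts on its own G protein-coupled receptors, EP for PGE2 and FP for PGF2α. In skeletal muscle PGE2 acting on EP4 is known to support stem cell expansion, PGF2α to support myotube growth, and prostacyclin to slow myoblast movement before fusion.

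Polyadenylated RNA was sequenced from 3 GM samples of proliferating MuSCs and 3 DM samples of differentiating MuSCs. All were primary cells of Bubalus bubalis, isolated from fetal longissimus muscle with collagenase and trypsin. GM samples were kept in growth medium (high-glucose DMEM with fetal bovine serum), whereas DM samples had been switched at near confluence to differentiation medium (DMEM with little horse serum) for some days. The labels name no animal or culture, so the p-values below measure only the spread between these samples, which may be technical.

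Each sample had between 35615864 and 40305237 counts on genes. Levels are given below as counts, as CPM (counts scaled to a common library size, with TMM normalization) or, between genes, as deposited RPKM. RPKM divides by gene length and by library size without TMM, so the groups can compare differently in RPKM and in CPM. DM replicate 3 stood apart from DM replicates 1 and 2 along the second principal component, which held 8.79% of the variance. A gene was called when its absolute log2 fold change (DM over GM) was above 1 and its adjusted p was under 0.05 in edgeR's quasi-likelihood test. This was met by 3936 of 15576 genes tested (25.3%), with 2330 upregulated (15.0%) and 1606 downregulated (10.3%) in DM samples.

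The receptors PTGER3, PTGFR and PTGER2 were higher in DM samples, and the prostacyclin synthase PTGIS was lower. These were the 4 called genes among the 9 of the 10 that had at least 10 counts in total, PTGDS being the exception. Another 5 were tested and not called (PTGS1, PTGS2, PTGES, PTGER4 and HPGD). In 7 of the 9 no DM sample lay within the range of the GM samples or the reverse (CPM), compared with 68.8% of all genes tested. Because the set was chosen with this contrast known, nothing is read from either count.

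**Figure D1:**
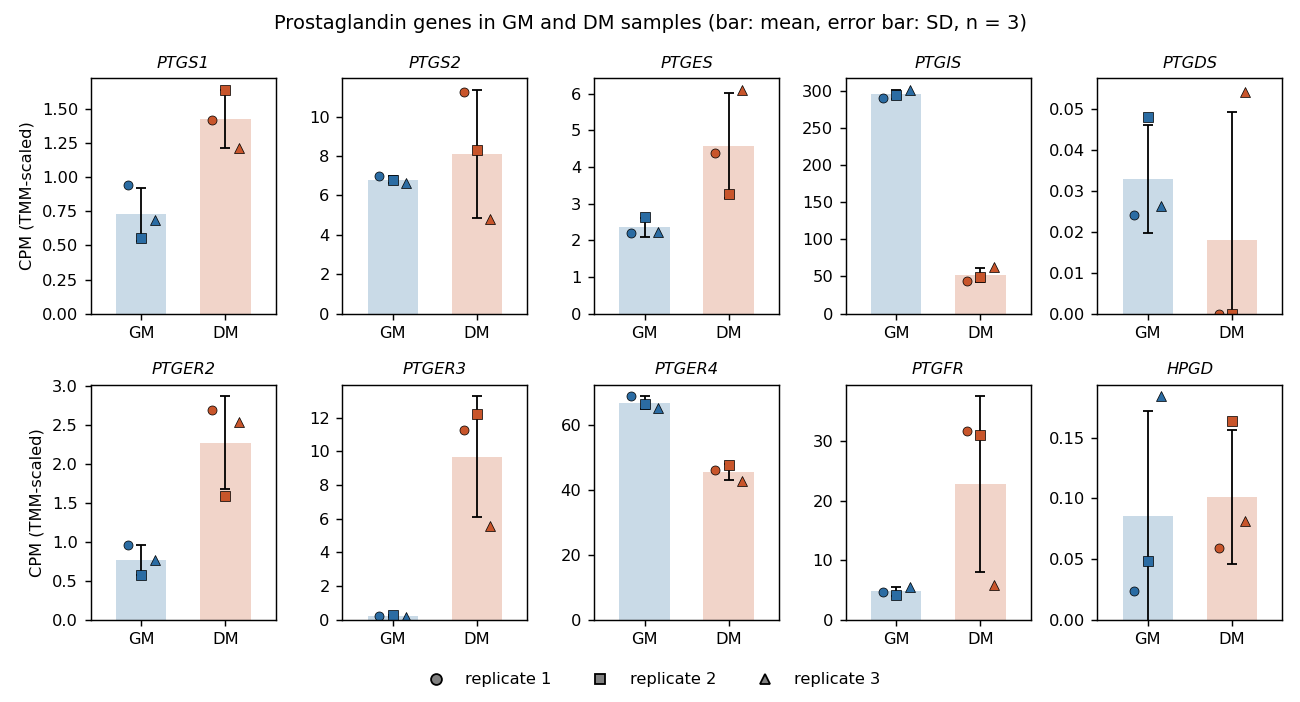
Level of each prostaglandin gene in CPM (linear axes from 0, a scale for each gene) in the 3 GM and 3 DM samples (points), with the mean (bar) and SD (error bar, cut off at 0) of each group. PTGIS had the highest mean in both groups, with a range that overlapped that of PTGER4 in DM samples, PTGER3 went from a mean of 0.230 to 9.70 CPM, and DM replicate 3 lay beside the GM samples for PTGFR.

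The cyclooxygenases were expressed at low levels in both groups, and neither was called. PTGS1, the constitutive cyclooxygenase, had 39, 23 and 26 counts in GM replicates 1, 2 and 3 and 48, 60 and 45 counts in DM replicates 1, 2 and 3. All 3 DM samples were above the GM samples, with a mean of 0.726 ± 0.197 CPM in GM samples and 1.43 ± 0.212 CPM in DM samples (SD, n = 3). The log2 fold change was 0.97 (SE 0.31), just under the limit of 1, and it ranged from 0.80 to 1.20 when single samples were left out.

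PTGS2, the inducible cyclooxygenase, had 290, 282 and 251 counts in GM replicates 1 to 3 and 381, 304 and 177 counts in DM replicates 1 to 3. DM replicates 1 and 2 lay above the GM samples and DM replicate 3 below them, so that the groups overlapped. Means were 6.80 ± 0.187 CPM in GM samples and 8.12 ± 3.25 CPM in DM samples, and the log2 fold change was 0.25 (SE 0.25). Without DM replicate 1 it was -0.05. On the RPKM scale PTGS2 was 7.31 ± 1.81 times PTGS1 in GM samples and 4.22 ± 1.54 times PTGS1 in DM samples, and these ratios overlapped between the groups.

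Among the terminal synthases, PTGIS was lower in DM samples and the fitted difference of PTGES was of opposite sign but was not called. PTGIS, which converts PGH2 into prostacyclin, had 12012, 12258 and 11428 counts in GM replicates 1 to 3 and 1485, 1809 and 2322 counts in DM replicates 1 to 3. The groups were far apart, and the highest DM sample was DM replicate 3. The mean was 295 ± 5.91 CPM before and 52.1 ± 9.66 CPM after the switch of medium. PTGIS was thus 5.67-fold lower in DM samples, with a log2 fold change of -2.50 (SE 0.11) and a range of -2.65 to -2.39 over the alternatives. By mean RPKM it stood at percentile 95.6 of the genes tested in GM samples and at percentile 76.4 in DM samples.

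PTGES, the inducible PGE2 synthase that works with PTGS2, had 91, 110 and 84 counts in GM replicates 1 to 3 and 148, 119 and 226 counts in DM replicates 1 to 3. All DM samples were above the GM samples, and here too DM replicate 3 was the highest. The log2 fold change was 0.96 (SE 0.24), and means were 2.35 ± 0.254 CPM in GM samples and 4.58 ± 1.44 CPM in DM samples. PTGES was called when GM replicate 2, DM replicate 1 or DM replicate 2 was left out, and PTGS1 was called without GM replicate 1 or without DM replicate 3.

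The RPKM of PTGIS was 51.2, 43.2 and 52.7 times that of PTGES in GM replicates 1 to 3. It was 3.89, 5.89 and 3.98 times that of PTGES in DM replicates 1 to 3. PTGIS thus exceeded PTGES in all 6 samples, by a mean of 49.0 ± 5.12 times in GM samples and 4.59 ± 1.13 times in DM samples.

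PTGDS, the lipocalin-type PGD2 synthase, was at the limit of detection. It had 1, 2 and 1 counts in GM replicates 1 to 3 and 0, 0 and 2 counts in DM replicates 1 to 3, and it was not tested. No library exceeded the floor of 3 counts, so no fold is given.

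Of the 10 genes PTGER3 had the largest fitted difference, while the other EP receptors differed less. PTGER3 encodes EP3, which mainly couples to the inhibitory G protein and lowers cAMP. It had 10, 11 and 7 counts in GM replicates 1 to 3 and 381, 448 and 206 counts in DM replicates 1 to 3. Every DM sample was far above every GM sample, and DM replicate 3 was the lowest of the DM samples. Means were 0.230 ± 0.041 CPM in GM samples and 9.70 ± 3.61 CPM in DM samples, a 41.4-fold difference (log2 fold change 5.37, SE 0.36) that ranged from 5.18 to 5.66 on the log2 scale over the alternatives.

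PTGER2 encodes EP2, which couples to the stimulatory G protein and raises cAMP. It had 40, 24 and 29 counts in GM replicates 1 to 3 and 91, 58 and 94 counts in DM replicates 1 to 3. All DM samples were above the GM samples, although the level stayed low, with means of 0.769 ± 0.194 and 2.27 ± 0.601 CPM. The log2 fold change was 1.56 (SE 0.31).

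PTGER4 encodes EP4, the other cAMP-raising receptor of PGE2, and was the most abundant receptor of the set in all 6 samples by RPKM. It had 2860, 2764 and 2469 counts in GM replicates 1 to 3 and 1559, 1745 and 1585 counts in DM replicates 1 to 3. All DM samples were below all GM samples, with little spread within a group. Means were 66.8 ± 1.95 and 45.6 ± 2.48 CPM, and the log2 fold change of -0.55 (SE 0.068) did not reach the minimum for a call. With library size alone as the scaling it was -0.65.

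The make-up of the EP receptor transcripts was calculated as shares of the summed RPKM of PTGER1, PTGER2, PTGER3 and PTGER4. PTGER1, the calcium-coupled EP1, is not among the 10 genes and was added to complete the family. PTGER4 took 97.5, 97.6 and 97.7% of the sum in GM replicates 1 to 3, and 60.7, 60.7 and 69.1% in DM replicates 1 to 3. PTGER3 took 0.713, 0.812 and 0.579% in GM replicates 1 to 3, and 31.0, 32.6 and 18.8% in DM replicates 1 to 3. The sum itself was 25.1 ± 0.796 RPKM in GM samples and 24.7 ± 3.11 RPKM in DM samples, and these ranges overlapped. In CPM the sum was 68.0 ± 2.06 in GM samples and 59.2 ± 5.43 in DM samples, without overlap. The split depends on the division by gene length. With CPM in place of RPKM the share of PTGER3 was 16.1 ± 4.86% in DM samples and that of PTGER4 was 77.2 ± 3.21%.

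**Figure D2:**
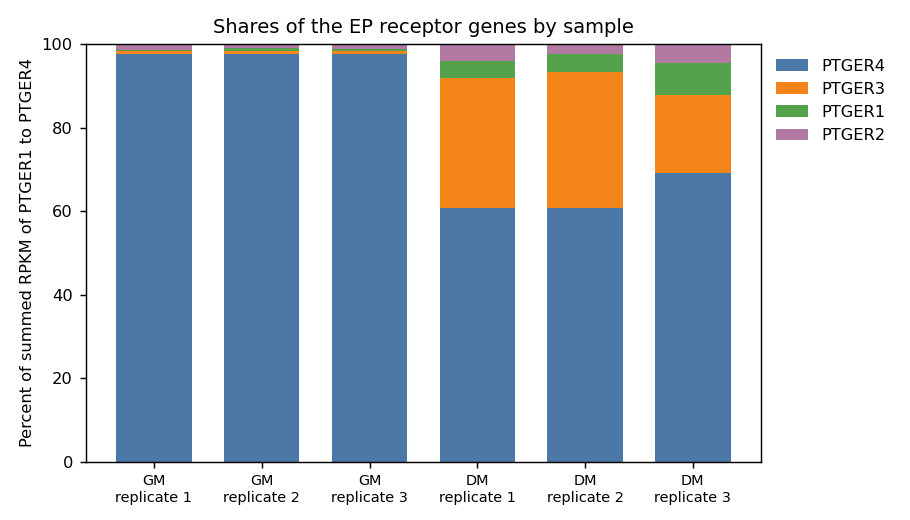
Percent of the summed RPKM of the 4 EP receptor genes taken by each gene in each sample (stacked bars, axis from 0 to 100%). PTGER4 made up nearly all of the sum in GM samples, and PTGER3 took a mean of 27.5% in DM samples.

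PTGFR encodes FP, the calcium-coupled receptor of PGF2α, and its level in DM samples was set by 2 of the 3 replicates. It had 192, 172 and 209 counts in GM replicates 1 to 3 and 1070, 1135 and 214 counts in DM replicates 1 to 3. DM replicates 1 and 2 were well above the GM samples, while DM replicate 3 was beside the highest of them. Means were 4.76 ± 0.698 and 22.8 ± 14.8 CPM, with a log2 fold change of 2.26 (SE 0.49). It was 2.73 without DM replicate 3 and no lower than 1.96 when any other sample was left out. By CPM the groups just failed to overlap (5.51 in GM replicate 3 and 5.78 in DM replicate 3). By RPKM, which is scaled without TMM, they overlapped (1.83 and 1.80).

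PTGFR was 5.38-fold lower in DM replicate 3 than in the mean of DM replicates 1 and 2, taken on the scale of log2(CPM + 0.05), as are the folds between DM samples that follow. Among the 12471 genes tested with a DM mean of at least 1 CPM, 30 (0.241%) were at least as far down in DM replicate 3. In the same library PTGER3 was 2.10-fold lower and PTGS2 2.04-fold lower than in the other DM samples, while PTGES was 1.59-fold and PTGIS 1.34-fold higher. A difference of more than 2-fold in either direction was seen for 369 of these genes (2.96%). What set DM replicate 3 apart was not tested.

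**Figure D3:**
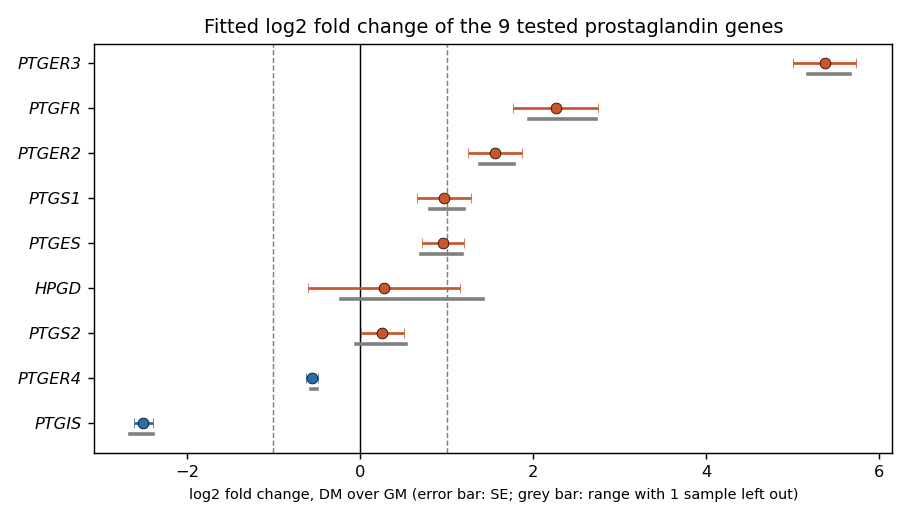
Log2 fold change (DM over GM) of the 9 tested prostaglandin genes, with its standard error (error bars) and its range when single samples were left out (grey bars); dashed lines mark the minimum for a call. PTGER3 had the largest value at 5.37 and PTGIS the lowest at -2.50, and the ranges of PTGS2 and HPGD lay on both sides of 0.

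PTGER3 and PTGFR were listed with several transcripts, and the other genes of the set with 1 each. The 3 PTGER3 transcripts, of 1254, 1158 and 1086 bases, had log2 fold changes of 5.33, 5.26 and 5.29. The 2 PTGFR transcripts, of 1846 and 2216 bases, had 2.34 and 2.12. Counts summed over transcripts exceeded the gene's own count (1055 compared with 381 for PTGER3 in DM replicate 1), so that reads were counted on more than 1 transcript. The transcripts of a gene are therefore not separate measurements, and the RPKM ratio of the short to the long PTGFR transcript overlapped between GM samples (0.561 to 0.871) and DM samples (0.749 to 0.878).

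**Figure D4:**
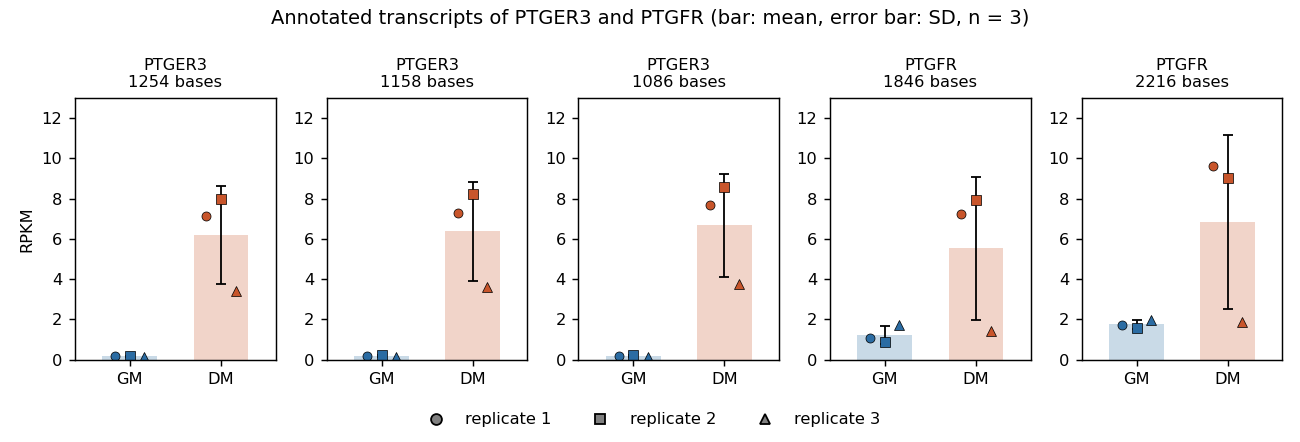
RPKM of each listed transcript of PTGER3 and PTGFR in the 6 samples (points), with the mean (bar) and SD (error bar) of each group. All 3 PTGER3 transcripts were higher in every DM sample than in any GM sample, and both PTGFR transcripts were low in DM replicate 3.

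The gene table placed PTGFR and PTGER3 on the same chromosome, at chr3:66382018-66445670 on the minus strand and chr3:74488314-74530201 on the plus strand, 8.04 Mb apart. PTGIS was listed at chr13:78319020-78368752 on the minus strand. PTGS1 (chr11:93219287-93245045), PTGES (chr11:100143653-100155090) and PTGDS (chr11:106247577-106250629) shared chromosome 11. The tables list cattle Ensembl identifiers and name no genome build. No listed gene overlapped any of the 10.

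HPGD, which inactivates prostaglandins by oxidation, was hardly detected. It had 1, 2 and 7 counts in GM replicates 1 to 3 and 2, 6 and 3 counts in DM replicates 1 to 3, so that the groups overlapped. The log2 fold change was 0.28 (SE 0.87) and changed sign with the sample left out, from -0.22 to 1.42. At this depth a difference was not detectable.

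When the 10 genes were ordered by RPKM, PTGIS led in GM samples (136 to 141), followed by PTGER4 (23.9 to 25.3), PTGES (2.66 to 3.19), PTGS2 (1.96 to 2.08) and PTGFR (1.37 to 1.83). None of these 5 overlapped its neighbour. PTGER2 and PTGS1 came next and overlapped each other, followed by PTGER3, and PTGDS and HPGD were last and overlapped. In DM samples PTGIS (18.9 to 27.6) and PTGER4 (14.7 to 16.6) again led without overlap, but PTGFR, PTGER3 and PTGES followed with overlapping ranges. Below them PTGS2, PTGER2 and PTGS1 stood in that order without overlap, and HPGD and PTGDS were again last.

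The other genes of the pathway were taken from 8 lists of 132 genes, of which 115 were listed and 103 tested. In DM samples 20 were upregulated and 13 downregulated, and 70 were not called. The share called was 32.0%, beside 25.3% of all genes tested, and the median log2 fold change was 0.12, beside 0.03 over all genes tested. These lists, like the marker lists further below, were chosen with earlier results of these data known, so nothing is read from the share or the median. Adjusted p-values below are from edgeR's quasi-likelihood test with Benjamini-Hochberg adjustment over all genes tested. They describe single genes and do not account for that choice.

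**Figure D5:**
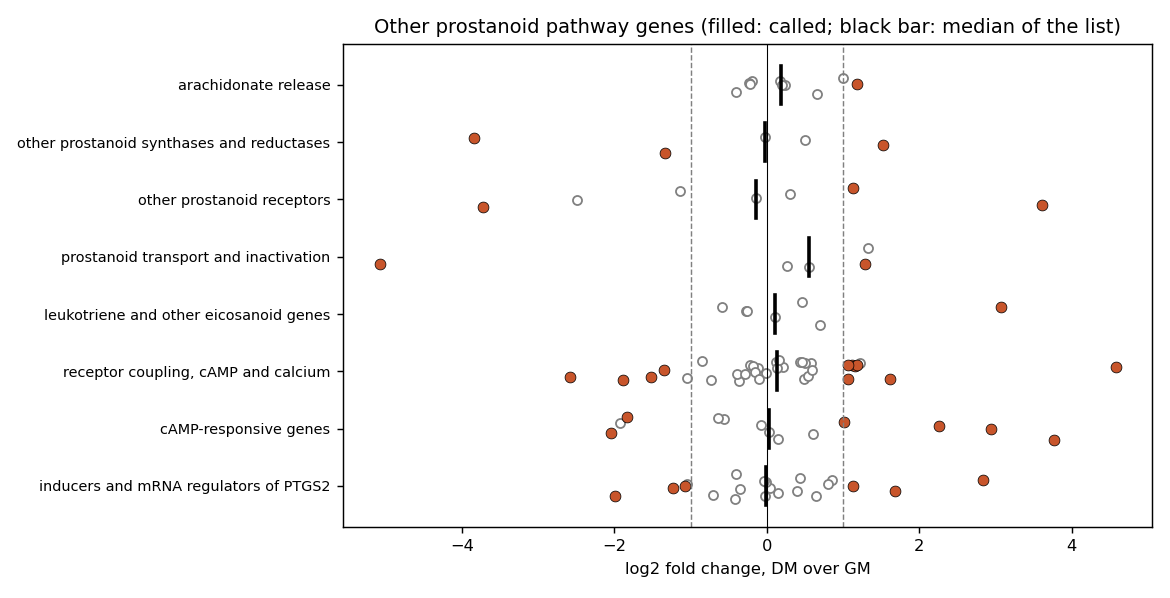
Log2 fold change (DM over GM) of each tested gene in the 8 lists of other prostanoid pathway genes, with called genes marked and the median of each list shown. Called genes lay on both sides of 0 in 6 of the 8 lists, and every list median lay between -0.14 and 0.56.

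Upstream of the cyclooxygenases, 1 of 10 genes of arachidonate release was upregulated and none downregulated. It was PLA2G12A, a secreted phospholipase A2 (log2 fold change 1.18, adjusted p = 3.7e-07). PLA2G4A, the cytosolic phospholipase A2 that feeds the cyclooxygenases, had means of 20.9 ± 0.625 and 23.5 ± 4.68 CPM and was not called (log2 fold change 0.17, adjusted p = 0.264).

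Of 5 tested genes among the other prostanoid synthases and reductases, 1 was upregulated and 2 were downregulated. PTGES3, the cytosolic PGE2 synthase that is also the HSP90 co-chaperone p23, fell from 334.5 ± 8.04 to 132.5 ± 9.07 CPM (log2 fold change -1.34, adjusted p = 5.1e-08). HPGDS, the hematopoietic PGD2 synthase, had 19, 38 and 29 counts in GM replicates 1 to 3 and 1, 3 and 1 counts in DM replicates 1 to 3, at least 8.48-fold lower against the mean floor of 3 counts per library (adjusted p = 0.000269). PRXL2B, which reduces PGH2 to PGF2α and was listed as FAM213B, rose from 6.50 ± 1.02 to 18.7 ± 1.27 CPM (log2 fold change 1.53, adjusted p = 2.62e-06).

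Among 7 tested genes of the other prostanoid receptors, 2 were upregulated and 1 was downregulated. PTGER1 had 3, 8 and 5 counts in GM replicates 1 to 3 and 47, 56 and 75 counts in DM replicates 1 to 3 (log2 fold change 3.61, adjusted p = 2.3e-05). Unlike PTGER3 and PTGFR, it was highest in DM replicate 3. TBXA2R, the thromboxane receptor, rose by a log2 fold change of 1.13 (adjusted p = 0.00241). PPARG, a nuclear receptor that binds a PGD2 derivative and drives adipogenesis, went from 4.33 ± 0.408 to 0.319 ± 0.206 CPM (log2 fold change -3.73, adjusted p = 1.1e-05).

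Among 5 tested genes of transport and inactivation, 1 was upregulated and 1 downregulated. SLCO4A1, an organic anion transporter, had a log2 fold change of -5.07 (adjusted p = 7.2e-07). SLCO3A1, a related transporter that carries prostaglandins, had a log2 fold change of 1.28 (adjusted p = 0.000809), but 1236 of its counts in DM samples came from DM replicate 3, compared with 585 and 587. Without that library its value was 0.87 and it was not called.

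In the list of receptor coupling, cAMP and calcium genes, 7 of 35 were upregulated and 4 downregulated. The largest changes of moderately expressed genes were those of the phosphodiesterase PDE3B (log2 fold change -2.58), the cAMP-activated exchange factor RAPGEF4 (-1.89) and the receptor kinase GRK5 (1.62). Below a mean of 1 CPM the adenylyl cyclase ADCY4, named after its values were seen, was upregulated. It had 0, 2 and 2 counts in GM replicates 1 to 3 and 30, 26 and 37 counts in DM replicates 1 to 3. For 4 of the 7 upregulated genes (ADCY7, PLCB1, PLCB4 and ARRB1, named after their values were seen) the call was lost when a single library was left out, either DM replicate 1, 2 or 3 or GM replicate 3.

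Genes that respond to cAMP moved both ways, with 4 of 13 upregulated and 2 downregulated. The transcriptional coactivator PPARGC1A (log2 fold change 3.77) and the immediate early genes FOSB (2.94) and FOS (2.26) led the upregulated genes. The 2 downregulated genes were the immediate early nuclear receptors NR4A1 (-1.83) and NR4A3 (-2.04), named after their values were seen. Of 21 tested genes listed around the induction and mRNA regulation of PTGS2, inhibitors and glucocorticoid-induced genes among them, 3 were upregulated and 3 downregulated. Among those with a mean of at least 1 CPM the largest changes were those of the glucocorticoid-induced genes TSC22D3 (2.84) and FKBP5 (1.69) and of HNRNPD (-1.23), which binds AU-rich mRNA. Below that level the cytokine IL1A, named after its values were seen, was downregulated (-1.99). PER1 (1.01) and NFKBIA (1.13) were upregulated, with all DM samples above all GM samples in CPM. Leaving out single samples gave 0.95 to 1.05 for PER1 and 0.95 to 1.30 for NFKBIA, on both sides of the limit of 1. The call of PER1 was lost without GM replicate 2 or DM replicate 1 and with library size alone. That of NFKBIA was lost without DM replicate 3. Both genes were picked with their values known. Among 7 tested genes of leukotriene and other eicosanoid synthesis and signaling, 1 was called, ALOX15, with counts of 2, 1 and 0 in GM replicates 1 to 3 and 7, 11 and 7 in DM replicates 1 to 3 (named after its values were seen).

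Markers of the cells that such a culture could hold moved between the groups as well. The summed CPM of 11 myogenic markers was at most 3362 in any GM sample and at least 6055 in any DM sample, with 7 upregulated and 1 downregulated. DES, which had the highest mean over the 6 samples, was not called (2274 ± 103 CPM in GM and 2051 ± 323 CPM in DM samples). The sum of 9 fibroblast and fibro-adipogenic markers, led by COL1A1, was at most 25210 CPM in any GM sample and at least 77340 CPM in any DM sample, with 5 of 8 tested genes upregulated. All 9 proliferation markers, led by MKI67, were downregulated, and their sum went from a mean of 2415 ± 18.2 to 544 ± 44.2 CPM.

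Markers of endothelial cells, leukocytes and adipocytes were low. The sums were at most 9.43 CPM for 7 endothelial markers (TEK highest), 16.2 CPM for 8 leukocyte markers (CD14 highest) and 8.35 CPM for 6 adipocyte markers (CIDEC highest) in any sample. Mast cells are a known source of HPGDS. Mast cell and platelet markers summed to between 14.0 and 14.6 CPM in GM samples and 3.01 and 5.43 CPM in DM samples. KIT had the highest mean of these, at 7.11 CPM, and was the 1 called gene of the 3 tested, with means of 12.3 CPM in GM and 1.95 CPM in DM samples. ITGA2B (1.86 and 1.84 CPM) and CPA3 (0.0857 and 0.137 CPM) were not called. FCER1A and MS4A2 were at 0 in all 6 samples. The 8 smooth muscle and pericyte markers, led by ACTA2, summed to 2764 to 2921 CPM in GM samples and 2727 to 3266 CPM in DM samples.

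In DM replicate 3 PTGFR, PTGER3, PTGS2, PTGS1 and PTGER4 were lowest among the DM samples by CPM. In this library 6 of 9 fibroblast markers and 7 of 8 leukocyte markers were lower than in both other DM samples. Higher than in both were 7 of 11 myogenic, 5 of 9 proliferation and 4 of 6 adipocyte markers. So were 4 of 7 endothelial and 4 of 8 smooth muscle and pericyte markers. Of the leukocyte markers, PTPRC had 1 count in each of DM replicates 1 and 3 and is not a measured difference. Nor are LEP and TIE1, each with 0, 1 and 3 counts in DM replicates 1 to 3. The leukocyte markers AIF1, CSF1R and ITGAM had at most 16 counts in any DM sample. The share of all genes lower or higher in DM replicate 3 than in both others was not computed, so nothing is read from these numbers of markers. The part of these cell types in the levels of the prostaglandin genes was not tested. In bulk samples fewer cells of a type and less RNA per cell cannot be told apart.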

How the data were processed

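RNA-seq of 3 GM and 3 DM samples was used, grouped by their labels. The authors deposited raw counts per gene and per transcript, without normalization, beside RPKM values, which the authors made from those counts with the deposited Length column (bases). Their lists of log2 fold changes, p-values and q-values were not used. The methods name HISAT2 and the buffalo genome, whereas the submitters' processing notes name Bowtie 0.12.2, mm8 and mm9, and the tables list cattle Ensembl identifiers; the counting tool is not given in the sources used here.

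The counts were fitted with edgeR 4.0.16 under R 4.3.3 (glmQLFit, glmQLFTest), using TMM normalization and Benjamini-Hochberg adjustment, on genes with at least 10 counts in total. The thresholds are those of the methods, which used DESeq2 (1.42.0 here, as an alternative). CPM was computed on TMM-scaled library sizes. Standard errors were taken from the F statistic. The detection floor was 3 counts per library and covers counting error only. Python 3.11.15 with numpy 2.4.6, pandas 2.3.3 and matplotlib 3.10.9 made the tables and plots, and the fit was tested on simulated data.

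The members and the gene lists were chosen with earlier results of these data known. Named genes were all members; every called gene of the synthase, receptor and transport lists; the 3 called genes of largest change in each other pathway list, where groups did not overlap and the mean reached 1 CPM; PLA2G4A; and in each marker list the most abundant gene and any at 0. In the lists 3 genes were matched by an older symbol. Alternatives were DESeq2, other scalings and filters, no minimum fold change, a replicate block and each sample left out. Transcripts on their own, the EP receptor shares (RPKM and CPM) and the other phospholipase A2 genes with PLA2R1 were added after seeing the data.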

Additional observations from a re-analysis of the deposited data

How the results depend on the processing

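The 4 called genes PTGER2, PTGER3, PTGFR and PTGIS were also called with DESeq2, with DESeq2's size factors, with library size alone, without a filter, with filterByExpr and with each sample left out. Over the samples left out, 3647 to 3995 of all genes, 30 to 34 other pathway genes, 29 to 35 markers and 4 to 5 prostaglandin genes were called. The RPKM rule of the methods (at least 1 in more than 50% of samples) gave 2197 genes and 20 other pathway genes; it tested 5 prostaglandin genes and called 3 of them, PTGES, PTGIS and PTGFR, and a gene above that level in DM samples only cannot pass it. Without a minimum fold change 9813 genes, 63 other pathway genes and 7 prostaglandin genes were called. With library size alone 52.8% of called genes were higher in DM samples (59.2% with TMM), and the median over all genes tested was -0.07. Of 124 values of the prostaglandin genes under alternatives, 4 differed in sign, 1 of PTGS2 and 3 of HPGD. The replicate block gave 3837 genes, 33 other pathway genes, 31 markers and the same 4 prostaglandin genes. Samples with the same number did not deviate together (r = -0.00756, -0.0218 and -0.0105), so the numbers were not taken as pairs. Genes under about 10 counts per library, PTGDS and HPGD among them, are limited by depth.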

Other observations

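Phospholipase A2 genes outside the lists, and the receptor gene PLA2R1, were looked up after the values had been seen. Of these 11 genes listed, PLA2R1 included, 6 were tested and 3 were called, all upregulated in DM samples (edgeR's quasi-likelihood test, adjusted over all genes tested). Of all genes tested 25.3% were called in either direction. Because these genes were looked up with their values known, nothing is read from the count. PLA2R1, the receptor of secreted phospholipases A2, had 39, 28 and 20 counts in GM replicates 1 to 3 and 389, 382 and 220 counts in DM replicates 1 to 3 (log2 fold change 3.69, adjusted p = 1.75e-06). PLA2G4E, a cytosolic phospholipase A2 that makes N-acyl phosphatidylethanolamines, had 2, 1 and 1 counts in GM samples and 45, 62 and 86 counts in DM samples, at least 23.9-fold higher against the mean floor of 3 counts per library (adjusted p = 2.79e-06). PLA2G7, which hydrolyses platelet-activating factor, rose from 1.74 ± 0.246 to 3.86 ± 0.875 CPM (log2 fold change 1.15, adjusted p = 0.00131).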
